A study of Mus musculus with 6 samples.

Results

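Genes that drive the cell cycle were examined in mammary fat pads of 4-week-old mice, as 3 groups set by the phase in which their products act. Of 43 genes listed, 42 had a probe set carrying that gene's symbol alone (the older symbol Cdc2a was accepted for Cdk1), out of 20519 genes named on the array. They were 21 of 22 genes of G2 and mitosis (G2/M), all 16 genes of the G1/S transition and DNA replication, and all 5 regulators of G1, which are 3 D cyclins and 2 inhibitors of cyclin-dependent kinases. Mki67 was the member without a probe set of its own. Where a gene had several probe sets, the brightest by its average across the 6 arrays was read, as a log2 intensity, so that a difference of 1 is 2-fold.

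Total RNA came from the cleared mammary fat pad, labelled as mammary stroma. There were 3 samples with genotype Rarb -/- (Rarb-null, lacking retinoic acid receptor beta) and 3 samples from wild-type littermates (Rarb +/+). Each sample had 1 Affymetrix array. The design asks what the loss of the receptor changes in the stroma. A description shared by all samples also ties the mice to ErbB2, an epidermal growth factor receptor family member. The labels do not say whether a transgene was carried, what the null allele is, or how many mice went into an array.

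The arrays were alike in overall level, with array medians of 6.78 to 6.85 and a median over all values of 6.83. Markers of mammary epithelium were read well above that median on every array although the fat pads were labelled as cleared. The epithelial adhesion molecule Epcam read 13.46, 13.46 and 13.30 on Rarb-null arrays 1, 2 and 3 and 12.85, 13.61 and 12.71 on wild-type arrays 1, 2 and 3. The adipocyte fatty acid binding protein Fabp4 and the fibroblast collagen Col3a1 were also high on all 6 arrays, while the probe set of the lipid droplet gene Plin1 stayed between 5.85 and 6.29. In whole tissue, fewer cells of a type and less RNA per cell cannot be told apart, and that holds for every value given here.

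The cell cycle is run by cyclin-dependent kinases that are switched on by cyclins made and destroyed in turn. Growth signals raise D cyclins in G1, and their kinases inactivate the retinoblastoma protein and release E2F factors, which turn on cyclin E and the genes of DNA replication. Later, a complex containing B-Myb and FoxM1 turns on the genes of G2 and mitosis, and the anaphase-promoting complex ends mitosis by destroying mitotic cyclins. When cells leave the cycle, E2F and G2/M genes are shut off together by the DREAM complex, which reaches many G2/M genes through a promoter element called the cell cycle genes homology region (CHR). In the mammary gland at puberty, epithelium of the advancing end buds and some cells of the surrounding fat pad divide.

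Promoters of 5 members that ranged widely are shown, with G2/M genes first and replication genes after them, because the phase groups differ in the elements they hold. The windows run 5′ to 3′ on the strand of the gene, from 250 bases before to 50 bases after the RefSeq start in GRCm38.p6. Capitals mark the CHR (TTTGAA or TTCGAA), the CCAAT box (CCAAT) and an E2F core (TTCCCGC or TTGGCGC), each searched on both strands, so that the E2F core may appear as GCGCCAA and the CCAAT box as ATTGG. The letters TTGG are shared by TTGGCGC and the reversed CCAAT box. Ccnb2, a B-type mitotic cyclin, lies at chr9:70421505-70421804 on the minus strand.
Ccnb2: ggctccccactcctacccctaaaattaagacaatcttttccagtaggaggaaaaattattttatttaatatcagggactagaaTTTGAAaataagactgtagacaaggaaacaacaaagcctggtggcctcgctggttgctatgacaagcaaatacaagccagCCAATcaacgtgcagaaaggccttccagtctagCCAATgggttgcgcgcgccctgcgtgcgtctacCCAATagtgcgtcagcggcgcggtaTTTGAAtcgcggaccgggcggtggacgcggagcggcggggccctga
Cdc20, the activator of the anaphase-promoting complex, lies at chr4:118437294-118437593 on the minus strand.
Cdc20: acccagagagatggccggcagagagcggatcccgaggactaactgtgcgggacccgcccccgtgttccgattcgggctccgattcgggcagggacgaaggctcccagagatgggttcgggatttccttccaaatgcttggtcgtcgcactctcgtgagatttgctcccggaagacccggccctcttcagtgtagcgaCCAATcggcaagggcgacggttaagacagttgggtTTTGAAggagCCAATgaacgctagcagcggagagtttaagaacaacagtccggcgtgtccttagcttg
Mcm6, a subunit of the replicative helicase, lies at chr1:128359656-128359955 on the minus strand.
Mcm6: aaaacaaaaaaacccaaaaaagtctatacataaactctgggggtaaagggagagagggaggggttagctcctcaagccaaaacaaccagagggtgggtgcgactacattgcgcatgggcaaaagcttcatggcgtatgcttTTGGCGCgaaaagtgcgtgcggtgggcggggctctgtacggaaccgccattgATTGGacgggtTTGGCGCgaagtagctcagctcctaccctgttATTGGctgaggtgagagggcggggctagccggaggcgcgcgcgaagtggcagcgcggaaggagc
Mcm5, another helicase subunit, lies at chr8:75109259-75109558 on the plus strand.
Mcm5: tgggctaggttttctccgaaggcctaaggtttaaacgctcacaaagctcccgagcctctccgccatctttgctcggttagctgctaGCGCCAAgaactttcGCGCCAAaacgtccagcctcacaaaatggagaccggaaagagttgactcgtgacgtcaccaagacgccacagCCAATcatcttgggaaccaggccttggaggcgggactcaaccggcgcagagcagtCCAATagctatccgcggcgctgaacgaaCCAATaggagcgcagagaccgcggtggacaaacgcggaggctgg
Rrm2, the small subunit of ribonucleotide reductase, lies at chr12:24708004-24708303 on the plus strand and held only a CCAAT box.
Rrm2: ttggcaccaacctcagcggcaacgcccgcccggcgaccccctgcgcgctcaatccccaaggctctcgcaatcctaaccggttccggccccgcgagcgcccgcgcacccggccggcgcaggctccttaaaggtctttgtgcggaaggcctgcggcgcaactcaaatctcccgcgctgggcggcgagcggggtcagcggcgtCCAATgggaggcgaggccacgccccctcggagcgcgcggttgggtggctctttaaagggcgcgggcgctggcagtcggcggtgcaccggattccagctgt

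A promoter was found for 34 of the 42 members, by symbol, in the RefSeq table of that build. The CHR was present in 12 of 18 G2/M promoters and in 2 of 13 promoters of G1/S and replication genes, against 21.7% of 27025 genes with a promoter in the table. An E2F core was present in 7 of 13 promoters of G1/S and replication genes and in 2 of 18 G2/M promoters, against 7.79% of all genes. CCAAT boxes were frequent in both groups, in 15 of 18 and 8 of 13 promoters, against 41.1% of all genes. All 12 G2/M promoters with a CHR also held a CCAAT box, a combination found in 8.61% of all genes. None of the 3 matched promoters of G1 regulators held a CHR or an E2F core. These are matches of letters in a window and not binding sites. Ccna2, Aurkb, Tpx2, Mcm4, Gins1, Ccne2, Ccnd1 and Ccnd2 were not matched.

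Within each genotype the arrays differed in cell cycle genes far more than the genotypes did. Rarb-null arrays 1 and 2 and wild-type array 2 read high, and Rarb-null array 3 and wild-type arrays 1 and 3 read low, by several-fold for most genes of G2/M and of replication. The 3 highest values lay on Rarb-null 1, Rarb-null 2 and wild-type 2 for 37 of 42 members, an order that 11.8% of all genes had. These were 21 of 21 G2/M genes, 15 of 16 G1/S and replication genes and 1 of 5 G1 regulators. The range from the lowest to the highest of the 6 arrays reached 4-fold for 31 of 42 members, against 1.7% of all genes. The labels give no factor that separates the arrays in this way, and its cause was not tested.

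**Figure D1:**
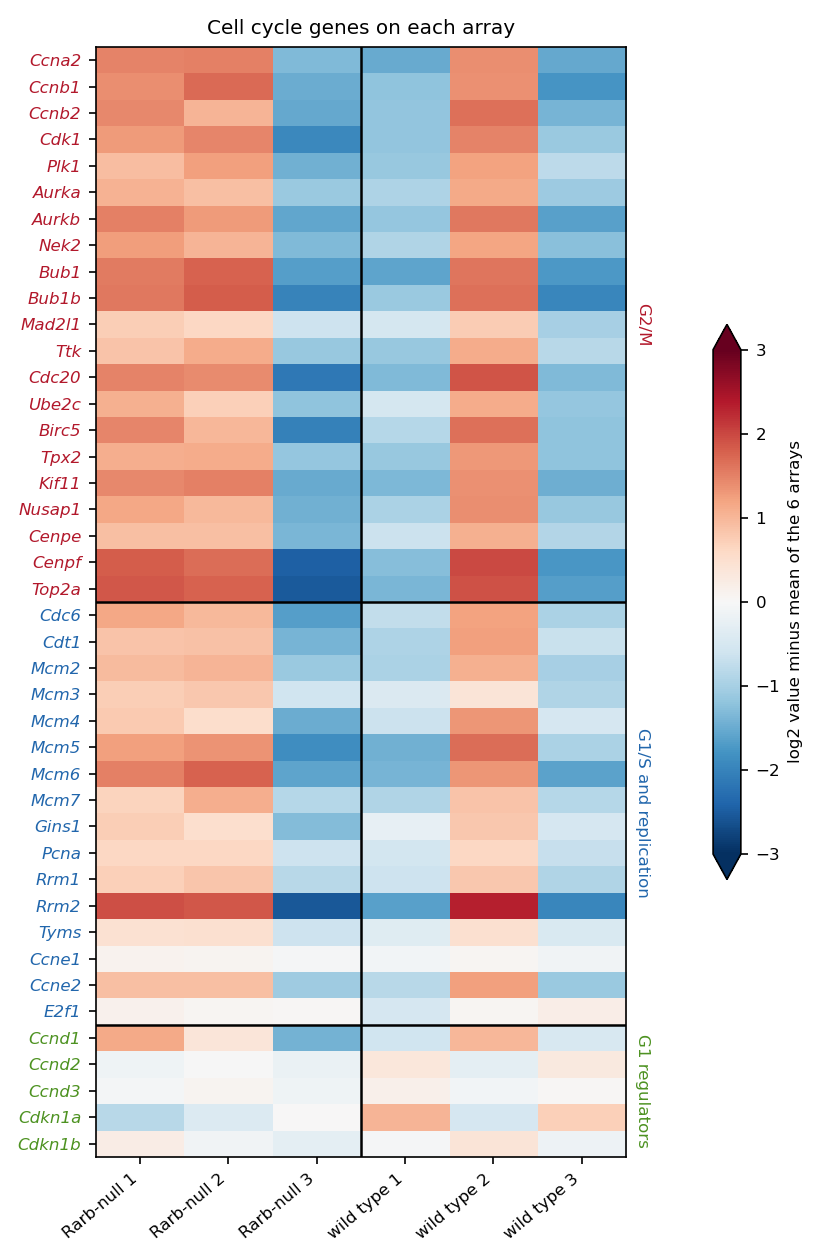
Level of each measured member on each of the 6 arrays, as the log2 value minus the gene's mean over the arrays (colour scale, log2 units), with genes in rows by phase group and arrays in columns by genotype. Rarb-null 1, Rarb-null 2 and wild-type 2 are above the mean for nearly all G2/M and replication genes, and most G1 regulators show little contrast.

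Among mitotic cyclins and kinases, cyclin A2 and the kinase it shares with the B cyclins showed the split plainly. Cyclin A2 (Ccna2) read 9.85, 9.86 and 7.03 on Rarb-null arrays 1, 2 and 3 and 6.83, 9.75 and 6.81 on wild-type arrays 1, 2 and 3. Cdk1, the catalytic partner of the mitotic cyclins, read 9.93, 10.10 and 6.72 on Rarb-null arrays and 7.46, 10.12 and 7.54 on wild-type arrays. In each genotype both genes were high on the same array or arrays, so the genotypes overlapped throughout. The other 6 of this class are the B cyclins Ccnb1 and Ccnb2, the kinases Plk1, Aurka and Aurkb of spindle assembly and chromosome segregation, and the centrosomal kinase Nek2, and all had the same 3 arrays on top. Aurka had the smallest range of the 8, with 8.66, 8.51 and 6.50 on Rarb-null arrays and 6.68, 8.74 and 6.52 on wild-type arrays. That range is still 4.75-fold.

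Spindle checkpoint genes, whose products hold back anaphase until chromosomes are attached, behaved alike. Bub1b read 9.32, 9.54 and 5.73 on Rarb-null arrays and 6.63, 9.39 and 5.77 on wild-type arrays, a range of 14.1-fold. The kinases Bub1 and Ttk ranged over 11.2-fold and 4.80-fold. Mad2l1, the checkpoint protein that sequesters Cdc20, had the smallest range of the G2/M genes, 3.40-fold, and was the one G2/M gene under 4-fold. It read 10.16, 10.03 and 8.79 on Rarb-null arrays and 8.89, 10.18 and 8.41 on wild-type arrays, in the order of the others.

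Genes of mitotic exit and of chromosome structure gave the widest ranges of the G2/M group. Cdc20 read 11.12, 11.06 and 7.49 on Rarb-null arrays and 8.29, 11.51 and 8.30 on wild-type arrays, a range of 16.2-fold. Ube2c, the ubiquitin-conjugating enzyme that works with the same complex, ranged over 4.95-fold. Among genes of the spindle, the kinetochore and mitotic chromosomes, Cenpf and Top2a were the widest. The kinetochore protein Cenpf read 9.86, 9.72 and 5.58 on Rarb-null arrays and 6.75, 10.02 and 6.29 on wild-type arrays. Topoisomerase II alpha (Top2a), which untangles sister chromosomes, read 10.35, 10.28 and 5.98 on Rarb-null arrays and 7.13, 10.40 and 6.83 on wild-type arrays. For both genes every value on a high array exceeded every value on a low one by at least 2.96 log2 units. Survivin (Birc5), the spindle factor Tpx2, the motor Kif11, the spindle protein Nusap1 and the kinetochore motor Cenpe followed with ranges of 5.44-fold to 12.7-fold.

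Genes that license origins and build the replicative helicase had the same 3 arrays on top in 9 of 9 cases. Mcm5 read 11.18, 11.31 and 8.08 on Rarb-null arrays and 8.52, 11.63 and 8.99 on wild-type arrays. Mcm6 read 11.27, 11.52 and 8.16 on Rarb-null arrays and 8.35, 11.08 and 8.15 on wild-type arrays. Both helicase subunits ranged over more than 10-fold (11.7 and 10.3). Cdc6, which loads the helicase at origins, read 8.89, 8.70 and 6.07 on Rarb-null arrays and 7.004, 8.94 and 6.78 on wild-type arrays. The loading factor Cdt1, the subunits Mcm2, Mcm3, Mcm4 and Mcm7 and Gins1, part of the active helicase, ranged over 3.27-fold to 7.03-fold. The narrowest was Mcm3, whose brighter probe sets are also given to another locus and were not used.

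At the fork, Rrm2 had the widest range of all members, 29.3-fold. It read 10.77, 10.69 and 6.28 on Rarb-null arrays and 7.21, 11.15 and 6.88 on wild-type arrays. Its partner Rrm1, the large subunit of ribonucleotide reductase, ranged over 3.32-fold. Pcna, the sliding clamp of DNA polymerases, read 12.66, 12.65 and 11.42 on Rarb-null arrays and 11.48, 12.65 and 11.34 on wild-type arrays, a range of 2.50-fold. Thymidylate synthase (Tyms) was read from a dim probe set that stayed under the median of all values, at 4.67 to 5.77, and ranged over 2.15-fold.

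The genes at the start of S phase were mixed. Cyclin E2 (Ccne2) read 7.35, 7.35 and 5.39 on Rarb-null arrays and 5.62, 7.70 and 5.34 on wild-type arrays, the same order as the replication genes. Cyclin E1 (Ccne1) read 9.73, 9.69 and 9.57 on Rarb-null arrays and 9.52, 9.68 and 9.50 on wild-type arrays, a range of 1.17-fold. A dimmer Ccne1 probe set read 7.72, 7.86 and 7.33 on Rarb-null arrays and 7.83, 7.90 and 7.51 on wild-type arrays. It lacked the common order, and its genotype difference had the opposite sign. E2f1, the factor that activates replication genes, read 9.24, 9.16 and 9.15 on Rarb-null arrays and 8.61, 9.17 and 9.31 on wild-type arrays and was the one G1/S gene without the common order. A dimmer E2f1 probe set read 9.18, 9.51 and 8.37 on Rarb-null arrays and 8.36, 8.97 and 8.71 on wild-type arrays, which is the common order, so the probe sets of this gene disagree.

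Rarb-null and wild-type arrays were then compared. No member differed between the genotypes by the fit over all 45037 probe sets (limma with Benjamini-Hochberg adjustment), which called 0.0% of them. The adjusted p of members ran from 0.908 to 0.997, and unadjusted p was below 0.05 for 0 of 42 members against 5.22% of probe sets and 5.3% of genes. The authors' deposited table gave p-values of 0.0768 to 0.938 for the same probe sets, 0 of them below 0.05 against 5.44% of probe sets. The values of the genotypes overlapped for all 42 members on the probe sets used, whereas they did not overlap for 10.6% of all genes. Among member probe sets not used, a Ccnd2 probe set was lower on Rarb-null arrays by -0.46 (unadjusted p = 0.0383, adjusted p = 0.908 by limma). All 6 other Ccnd2 probe sets had the sign of the one used. A dim Mcm3 probe set did not overlap and was higher by 0.30 (unadjusted p = 0.0458, adjusted p = 0.908 by limma).

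**Figure D2:**
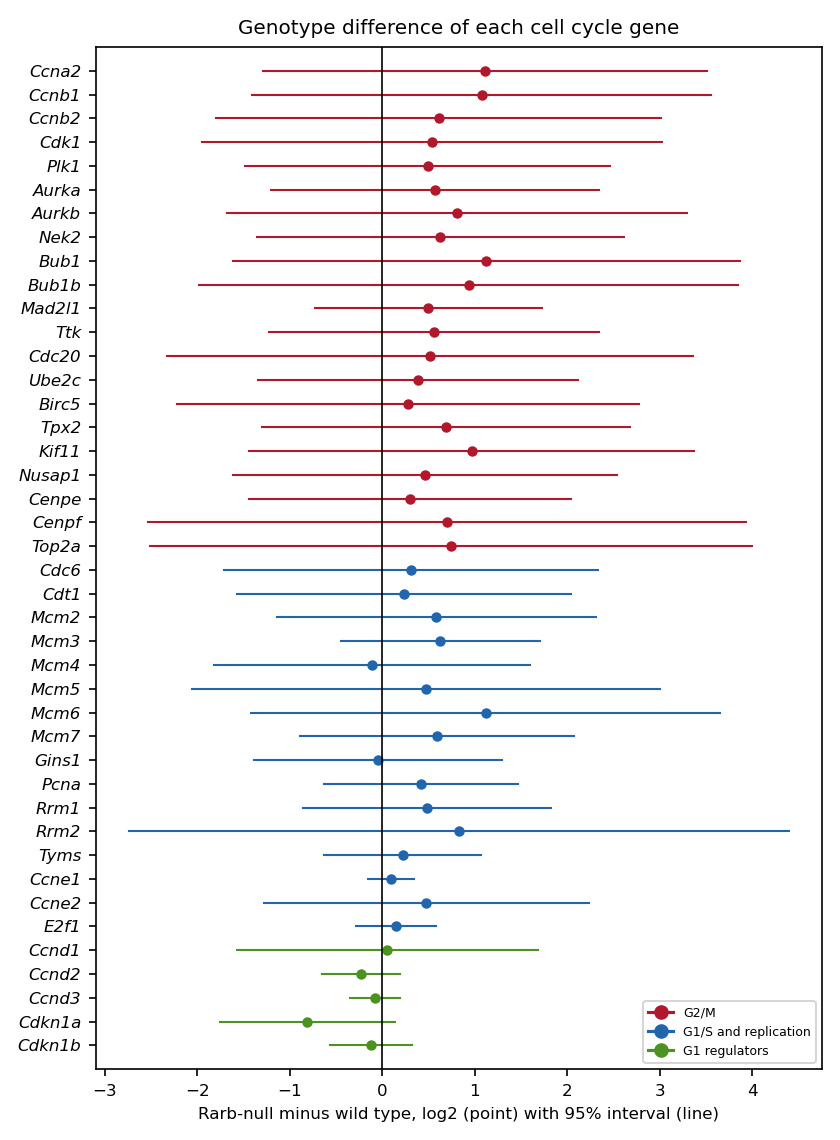
Difference between Rarb-null and wild-type means of each member (log2 units, horizontal axis) with its 95% interval from limma, by phase group, 3 arrays a genotype. Every interval holds 0, and the intervals of G2/M genes span several log2 units while those of Ccne1, Ccnd2 and Ccnd3 are narrow.

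The mean was higher on Rarb-null arrays for 36 of 42 members, against 47.1% of all genes. This held for 21 of 21 G2/M genes, with a median difference of 0.61 on the log2 scale, and for 14 of 16 G1/S and replication genes, with a median of 0.45. It held for 1 of 5 G1 regulators, with a median of -0.12, while the median over all genes was -0.01. For most members 2 of 3 Rarb-null arrays and 1 of 3 wild-type arrays were high, and members that move together on 6 arrays are not separate tests. Without Rarb-null array 3 the G2/M median was 1.53, and without wild-type array 3 it was 0.16.

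The 3 largest differences were each smaller than the SD within either genotype. Bub1 differed by 1.13 (7.14 ± 1.91 against 6.01 ± 1.88, SD, n = 3 each), and the adjusted p was 0.951 by limma. Mcm6 differed by 1.12 (10.31 ± 1.87 against 9.20 ± 1.64, SD, n = 3 each) with a 95% interval of -1.42 to 3.66. For Ccna2 the means were 8.91 ± 1.63 and 7.80 ± 1.69 (SD, n = 3 each), and the interval of the difference ran from -1.28 to 3.51. Mcm4 and Gins1 were the replication genes with a lower mean on Rarb-null arrays, by -0.11 and -0.04. Standard errors of the differences had a median of 0.76 for members and 0.14 for all genes, and the 95% interval stayed within 2-fold for 5 of 42 members against 92.7% of all genes. Changes of 2-fold in most members were therefore not resolved by 3 arrays a genotype.

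G2/M genes were compared with G1/S and replication genes array by array. Each gene was centred on its mean over the 6 arrays, and the centred values were averaged within a phase group. The G2/M mean was 1.30, 1.26 and -1.57 on Rarb-null arrays 1, 2 and 3 and -1.10, 1.42 and -1.33 on wild-type arrays 1, 2 and 3. The corresponding G1/S and replication mean was 0.85, 0.86 and -1.10 on Rarb-null arrays and -0.77, 0.97 and -0.81 on wild-type arrays. Both groups were thus above their mean on the same 3 arrays, with the larger swing in G2/M genes. As the arrays fall into separate clusters, no correlation between the phase groups was computed.

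**Figure D3:**
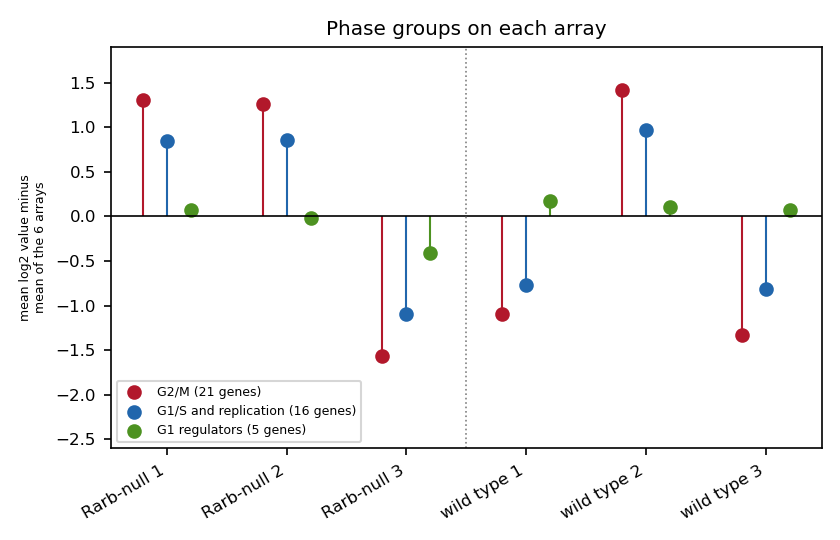
Mean centred log2 value (vertical axis, log2 units) of each phase group on each of the 6 arrays (horizontal axis), with genotypes marked. G2/M runs from -1.57 to 1.42 and G1/S and replication from -1.10 to 0.97, in step, while the G1 regulator mean stays between -0.41 and 0.17. That mean averages Ccnd1 and Cdkn1a, which have opposite orders over the arrays.

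The difference between the G2/M mean and the G1/S and replication mean was 0.46, 0.40 and -0.47 on Rarb-null arrays and -0.33, 0.45 and -0.52 on wild-type arrays. Its genotype means differed by 0.26, less than the spread within a genotype (SD 0.52 in each). Median ranges over the arrays were 3.04 log2 units (8.24-fold) for G2/M genes, 2.13 (4.37-fold) for G1/S and replication genes and 0.68 (1.60-fold) for G1 regulators, against 0.49 (1.40-fold) for all genes.

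Signal near an array's floor can shorten a range, and the probe sets of the phase groups sat at different levels. The lowest value was under the median of all values for 17 of 21 G2/M genes, 5 of 16 G1/S and replication genes and 0 of 5 G1 regulators. Probe sets differ in brightness for reasons other than RNA amount, so these levels describe the probe sets and do not rank the genes by abundance. Among genes whose lowest value was above the median of all values, the median range was 2.61 log2 units for 4 G2/M genes. It was 2.09 for 11 G1/S and replication genes. Among those with a lowest value under that median, it was 3.21 for 17 G2/M genes and 2.36 for 5 G1/S and replication genes. How far the floor shapes the difference between phase groups was not tested.

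**Figure D4:**
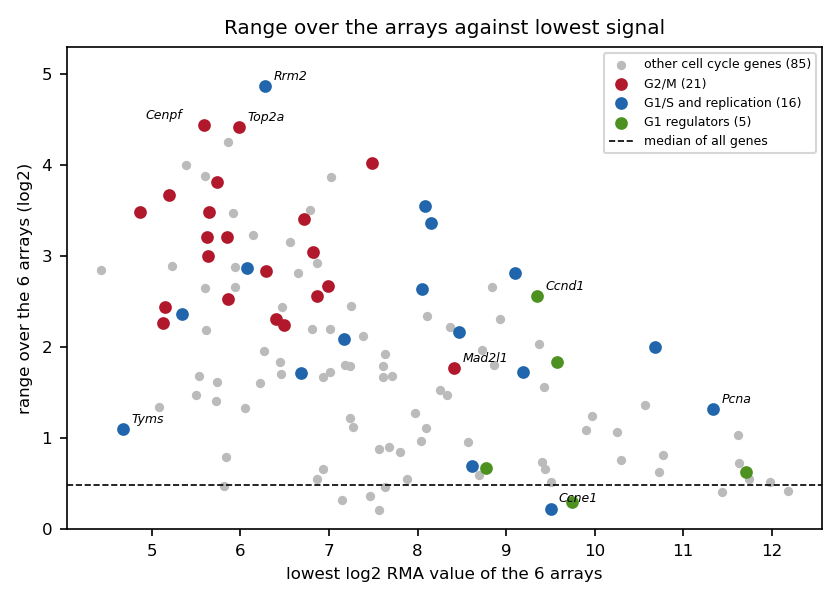
Range over the 6 arrays (log2 units, vertical axis) of each member against its lowest log2 value (horizontal axis), coloured by phase group, with 85 other cell cycle genes in grey and the median range of all genes as a dashed line. Rrm2, Cenpf and Top2a are at the top, and Ccne1 and 1 G1 regulator lie below the line.

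Pairs of arrays within a genotype gave the same picture at similar size. Rarb-null 1 exceeded Rarb-null 3 by a median of 2.89 in G2/M genes and 1.99 in G1/S and replication genes, and 36 of 42 members were at least 2-fold higher, against 2.04% of all genes. Rarb-null 2 exceeded Rarb-null 3 by 2.83 and 1.96, again with 36 of 42 members at least 2-fold higher, against 2.11% of all genes. Samples of a single genotype thus differed by several-fold in these genes. Wild-type 2 exceeded wild-type 3 by 2.85 and 1.77, with 35 of 42 members at least 2-fold higher against 2.77% of all genes. Wild-type 2 also exceeded wild-type 1, with 34 of 42 members at least 2-fold higher against 2.32% of all genes. Wild-type 1 and 3 differed by medians of 0.21 and 0.12, with no member 2-fold higher on the first, against 1.17% of all genes. Rarb-null 1 and 2 differed by medians of 0.06 and -0.01, and no member was 2-fold higher on the first, against 0.185% of all genes. The split was thus present inside both genotypes, and no difference of genotype enters these pairs.

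The G1 regulators did not share the split, apart from cyclin D1. Ccnd1 read 11.91, 11.13 and 9.35 on Rarb-null arrays and 10.17, 11.77 and 10.28 on wild-type arrays, a range of 5.90-fold in the common order. Ccnd2 read 11.87, 11.98 and 11.78 on Rarb-null arrays and 12.33, 11.71 and 12.27 on wild-type arrays. Ccnd3 read 9.81, 9.95 and 9.74 on Rarb-null arrays and 10.03, 9.80 and 9.90 on wild-type arrays. The latter 2 D cyclins, which activate the same G1 kinases as cyclin D1, ranged over 1.54-fold and 1.22-fold. On these probe sets they were somewhat higher on wild-type arrays 1 and 3 than on wild-type 2. A slightly dimmer Ccnd3 probe set read 9.33, 9.95 and 9.46 on Rarb-null arrays and 9.55, 9.94 and 9.63 on wild-type arrays. There wild-type 2 was the highest of the wild-type arrays, so the probe sets of Ccnd3 disagree.

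**Figure D5:**
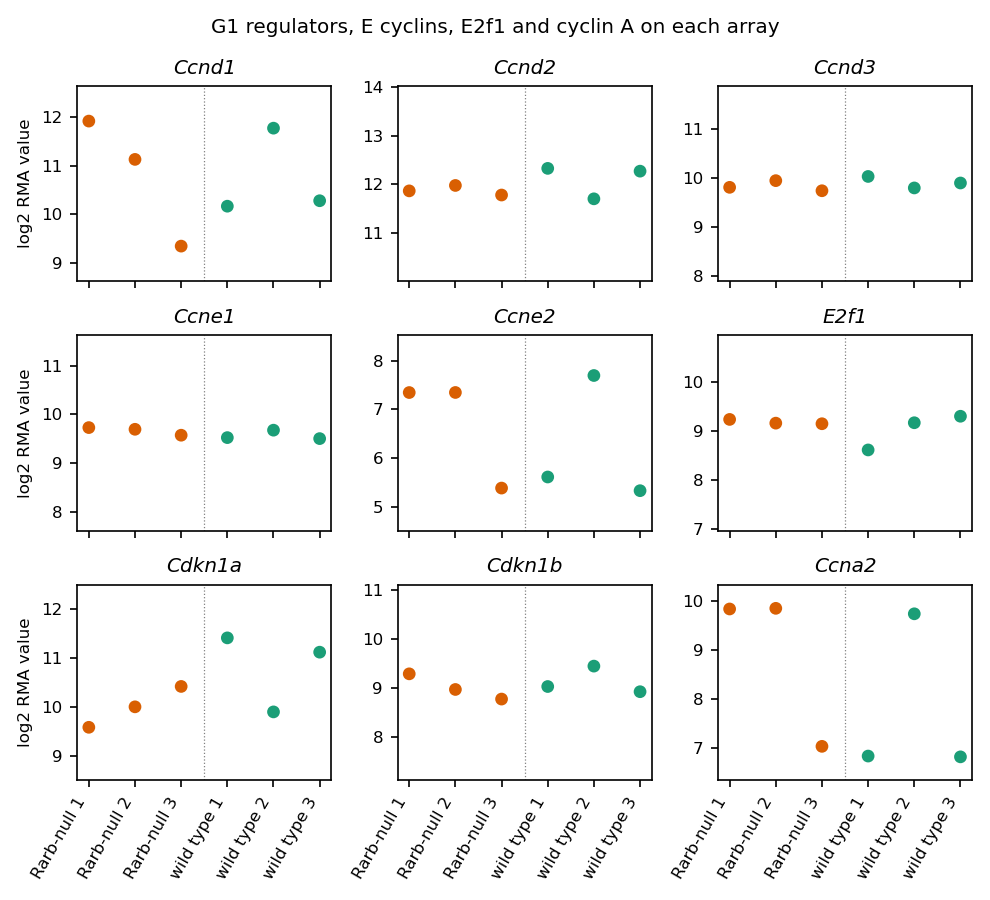
Log2 values (vertical axis) of the D cyclins, the CDK inhibitors and the cyclin E genes and E2f1 on each array, by genotype, beside Ccna2 for comparison, with 1 point an array, coloured by genotype, and every panel spanning 4 log2 units. Ccnd1, Ccne2 and Ccna2 spread within both genotypes, Ccnd2, Ccnd3 and Ccne1 are tight, and Cdkn1a is highest on wild-type 1 and 3.

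Of the CDK inhibitors, Cdkn1a encodes a p53 target that blocks cyclin-dependent kinases. It read 9.58, 10.00 and 10.42 on Rarb-null arrays and 11.41, 9.90 and 11.12 on wild-type arrays, so it was highest on the 3 arrays where replication and G2/M genes were lowest. It was the only member with the opposite order, which 13.7% of all genes had. Its genotype difference was -0.81 (95% interval -1.76 to 0.14), with unadjusted p = 0.0831 and adjusted p = 0.908 by limma, and its other probe set had the same sign. Cdkn1b, an inhibitor that holds cyclin E kinase inactive in resting cells, read 9.29, 8.97 and 8.77 on Rarb-null arrays and 9.03, 9.45 and 8.92 on wild-type arrays, with no such order.

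Other cell cycle genes outside the 42 mostly had the common order as well, with fewer of them ranging 4-fold. Of 30 other G2/M genes measured, 29 had the common order and 16 ranged at least 4-fold, and of 29 other replication genes measured, 26 had the order and 10 ranged at least 4-fold. Among 14 other G1 and E2F regulators these counts were 10 and 1, and among 12 genes of quiescence and growth arrest they were 1 and 0. Over all genes, 11.8% had the common order and 1.7% ranged at least 4-fold. None of the 85 passed the threshold between genotypes by limma, with 0 also at unadjusted p below 0.05, against 5.3% of all genes. The mean was higher on Rarb-null arrays for 28, 22, 13 and 4 genes of these lists, against 47.1% of all genes. Most of the 85 shared the common order, so these counts are not separate tests. The widest genes in each list show the scale. Melk, a mitotic kinase, read 10.12, 9.88 and 5.86 on Rarb-null arrays and 6.66, 10.06 and 6.41 on wild-type arrays. Kif2c, a microtubule depolymerase of the centromere, read 8.76, 8.39 and 5.39 on Rarb-null arrays and 5.90, 9.39 and 5.77 on wild-type arrays. Both repeat the pattern of Top2a and Cenpf. Uhrf1, which maintains DNA methylation at replication, read 10.29, 10.23 and 6.78 on Rarb-null arrays and 7.40, 10.23 and 7.09 on wild-type arrays. The repressor E2f8 read 7.83, 7.67 and 5.44 on Rarb-null arrays and 5.23, 8.12 and 6.11 on wild-type arrays, in contrast to the narrow brightest probe set of E2f1. Its relative E2f7 read 8.20, 7.77 and 6.43 on Rarb-null arrays and 6.27, 8.23 and 6.68 on wild-type arrays. In the quiescence list, Gadd45a, a growth arrest and DNA damage gene, had the opposite order, with 10.06, 10.19 and 10.81 on Rarb-null arrays and 11.21, 9.97 and 10.88 on wild-type arrays. Tob1, an antiproliferative gene, read 10.67, 10.04 and 10.98 on Rarb-null arrays and 10.92, 10.20 and 9.90 on wild-type arrays, in neither order. The genotypes did not overlap for 2 of the 85, Foxm1 and Orc2, a smaller share than the 10.6% of all genes, and they are named after their values were seen. Foxm1, the G2/M activator, was higher on Rarb-null arrays by 0.13 (adjusted p = 0.926 by limma), and the origin recognition subunit Orc2 was lower by -0.22 (adjusted p = 0.914).

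Across all 20519 genes, 173 (0.843%) had both the common order and a range of at least 4-fold. They included 31 of the 42 members and 27 of the 85 other cell cycle genes.

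Markers of some cell types moved with the split. Of 10 mammary epithelial markers, 8 had the common order, against 11.8% of all genes. The summed signal of the 10 on the log2 scale was 15.20, 15.28 and 14.95 on Rarb-null arrays and 14.64, 15.42 and 14.32 on wild-type arrays. The median epithelial marker was 0.27 higher on Rarb-null 1 than on Rarb-null 3 and 0.50 higher on Rarb-null 2 than on Rarb-null 3, where the median of the 42 members was 2.27 higher in both pairs. It was 0.61 higher on wild-type 2 than on wild-type 1 and 1.12 higher than on wild-type 3, where the members were 2.08 and 2.19 higher. Of 8 fibroblast markers, 5 had the common order, against the same 11.8% of all genes. The summed signal of the 8 was 16.63, 16.74 and 16.43 on Rarb-null arrays and 16.16, 16.66 and 16.43 on wild-type arrays. Adipocyte markers gave 16.16, 16.23 and 16.16 on Rarb-null arrays and 16.61, 16.08 and 16.56 on wild-type arrays, the reverse order in the wild type. Brown adipocyte markers stood out on Rarb-null 3, at 14.27 against 10.19 to 11.99 on the other 5 arrays. Muscle markers stood out on wild-type 2, at 13.84, and on Rarb-null 3, at 12.59, against 10.05 to 10.70 elsewhere. The summed signal of lymphocyte markers was highest on wild-type 1, at 12.34 against 10.43 to 11.00 elsewhere. A few bright genes can carry such a sum. Only 2 of the 10 lymphocyte markers were highest on wild-type 1, while 5 were highest on wild-type 3 and 3 on Rarb-null 3. The summed signals of endothelial (12.60 to 12.93), macrophage (14.28 to 14.81) and erythroid markers (12.21 to 13.29) are given as their range over the 6 arrays. The part of these cell types in the cell cycle values was not tested.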

How the data were processed

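Biotin-labelled RNA was hybridised to Affymetrix arrays, and the authors' values are log2 intensities produced with RMA (version not given), per the submitters' processing notes. The authors also deposited a table with symbols, genotype means, a log2 fold change, a SAM score and a p-value per probe set. The array design and its genome build are not given in the sources used here.

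Of 45101 probe sets, 64 control probe sets were left out. Symbols were updated through RefSeq synonyms for 8412 probe sets, were current for 28011 and were kept as given for 3726, while 1239 named several genes and 3649 none, and neither kind was used for a gene. For each gene the brightest probe set was used. Differences were fitted with limma 3.58.1 (lmFit and eBayes, R 4.3.3) on all 45037 probe sets and all 6 arrays, without covariates, and p-values were adjusted over all of them by Benjamini-Hochberg at 0.05. The fit was tested on simulated data. Tables and figures used Python 3.11.15, pandas 2.3.3 and matplotlib 3.10.9.

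Replicates are arrays, and nothing says which came from separate mice, so a p-value here reflects only how far these samples scatter, which may be technical. An exact permutation test of 3 against 3 cannot go below 0.1, and none was used. Their number limits the precision.

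The members, the other cell cycle lists and the marker lists were chosen with earlier results of these data known. Values on every array are given for the 4 members with the largest and the 2 with the smallest range in each phase group and for selected cyclins, inhibitors and markers of division. From each further cell cycle list the widest genes are given, except 1 that is not reported here. For each cell type list the summed signal is given. Alternatives were a further quantile normalization, centring each array on its median, a gene's average over its probe sets, leaving out the dimmest 40% of probe sets, a trended robust prior, the replicate block, each array left out, and other phase groupings.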

Additional observations from a re-analysis of the deposited data

How the results depend on the processing

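Under every alternative run for the 6 results by list (counts past the threshold, the 3 median differences and the contrast between phase groups), the direction and the side of the threshold were kept, and 0 members passed the threshold, with a smallest adjusted p of 0.272 by limma. The replicate block gave 0 calls too. The correlations of same-numbered arrays' deviations from their genotype means were -0.20, 0.45 and 0.29. With 3 arrays a genotype these values cannot show whether the numbers pair the arrays. Leaving out 1 array moved the G2/M median difference between 0.16 and 1.53, the G1/S and replication median between 0.09 and 1.05, the regulator median between -0.26 and -0.03 and the contrast between phase groups between 0.07 and 0.56. The members with a higher mean on Rarb-null arrays numbered 26 to 39. The contrast of 0.26 was 0.08 with each gene averaged over its probe sets, 0.42 with G1 regulators counted among G1/S genes, and 0.21 without Ccne1, E2f1 and Tyms, a choice made after seeing the data.

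Of 42 members, 24 kept their sign under every alternative. With each gene averaged over its probe sets, Mcm4 became 0.17, Tyms -0.018 and Ccne1 -0.0055. With 1 array left out, the difference crossed 0 for 16 members: Cdk1 ran from -0.051 to 1.64, Plk1 from -0.0038 to 1.33, Cdc20 from -0.10 to 1.72, Ube2c from -0.10 to 1.08, Birc5 from -0.38 to 1.36, Nusap1 from -0.0033 to 1.31, Cenpe from -0.080 to 1.06, Cenpf from -0.036 to 2.10, Cdc6 from -0.19 to 1.22, Cdt1 from -0.17 to 0.99, Mcm4 from -0.53 to 0.61, Mcm5 from -0.12 to 1.53, Gins1 from -0.42 to 0.59, E2f1 from -0.053 to 0.29, Ccnd1 from -0.50 to 0.78 and Cdkn1b from -0.26 to 0.034. The number of arrays limits what can be resolved.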

Other observations

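The proliferation marker Mki67 was left out above because its probe set is also given to a provisional locus. That probe set read 11.74, 11.70 and 7.46 on Rarb-null arrays 1, 2 and 3 and 8.94, 11.88 and 8.44 on wild-type arrays 1, 2 and 3, in the order of the G2/M genes. Brighter probe sets of Tyms, Ccnb1 and Mcm3 were left out for the same reason. The Tyms probe set read 9.77, 9.57 and 8.02 on Rarb-null arrays and 8.23, 9.93 and 8.21 on wild-type arrays. The brightest shared Ccnb1 probe set read 9.83, 9.85 and 6.05 on Rarb-null arrays and 6.99, 9.88 and 6.37 on wild-type arrays. All 3 shared Mcm3 probe sets were brighter than the one used above, with ranges of 2.70-fold, 3.87-fold and 6.84-fold, and each had the common order. The widest of them read 9.62, 9.68 and 6.97 on Rarb-null arrays and 7.68, 9.74 and 7.38 on wild-type arrays. How far a reading from these genes is shared with the other locus was not tested.

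Other probe sets of the G2/M and of the G1/S and replication genes, not used for the values above, gave a description of the same genes from other sequences. Of 64 probe sets of members that were not the brightest, 31 had the common order. Of 32 whose mean exceeded the median of all values, 20 had it, and 19 of the 32 were of G2/M and of G1/S and replication genes. Of these 19, 18 had it, and 11.8% of all genes had this order. A probe set can pass this filter on mean level through the high arrays alone, so the count is favoured by the selection and is not separate support.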
